A study of Mus musculus with 4 samples.

Results

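The Dectin-1 cluster is a group of C-type lectin receptor genes that lie side by side on mouse chromosome 6, inside the natural killer gene complex. The 7 genes followed here are Clec1a, Clec7a, Clec1b, Clec9a, Clec12a, Clec12b and Olr1, picked because earlier results of these data had Clec1a and Clec7a higher in long-term hematopoietic stem cells (HSCs). Of the 23450 gene symbols in the tables, 5 of the 7 members are listed, and Clec1b, the gene of the podoplanin receptor CLEC-2, and Clec9a, the gene of the dead-cell receptor DNGR-1, were not analysed here. Messenger RNA was sequenced from mouse bone marrow HSCs in 2 libraries per group. The long-term cells (LT-HSC) were sorted as CD48-, CD150+, CD34- and CD9 high, and the short-term cells (ST-HSC) as CD48-, CD150+ and CD9 low. The labels name CD34 in the LT-HSC gate alone, and both groups share the CD48 and CD150 gates. Each library came from 2000 sorted cells, and the labels give no strain, age or sex and do not say whether the libraries came from separate animals, so any p-value below measures how far these libraries spread, possibly for technical reasons. Library totals ran from 13080098 to 16159033 reads. Libraries of the same group were not clearly closer than libraries of different groups, with Pearson's r of log2(CPM + 1) across genes of 0.74 between the LT-HSC libraries, 0.80 between the ST-HSC libraries and 0.719 to 0.767 between groups, where CPM are counts per 1000000 library reads and genes are not independent replicates.

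The receptors of this cluster are membrane proteins with a single C-type lectin-like domain outside the cell and a short tail inside it. Some carry an activating tyrosine motif that recruits the kinase Syk, and from there the CARD9, BCL10 and MALT1 complex activates NF-kB; others carry an inhibitory motif that recruits the phosphatases SHP-1 and SHP-2. The family is best known from macrophages, dendritic cells, neutrophils and platelets, where it reads fungal cell walls, dead cells and podoplanin.

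The 5 listed members showed 4 patterns. Clec1a was read in every library and stood higher in LT-HSC, Clec7a was read in LT-HSC and at the lowest value of both ST-HSC tables, Clec12a varied from library to library, and Clec12b and Olr1 were at the lowest value of all 4 tables. That lowest value stands for at most 1 read. RefSeq promoters, which run from 250 bases before to 50 bases after a start site, were matched by symbol for 6 of the 7 members, all but Clec1a. The 3 below stand for 3 of these patterns, with Clec7a read in LT-HSC, Clec12a read unevenly and Olr1 not read. They are from build GRCm38.p6 on chromosome 6, at chr6:129472730-129473029 (minus strand, the first of 2 annotated start sites), chr6:129349994-129350293 (plus strand) and chr6:129507116-129507415 (minus strand). Capitals mark every match, on either strand, to the PU.1-type ETS motif GAGGAA, the RUNX motif TGTGGT or the GATA motif AGATAA, each spelled as its reverse complement where it lies on the other strand.
Clec7a: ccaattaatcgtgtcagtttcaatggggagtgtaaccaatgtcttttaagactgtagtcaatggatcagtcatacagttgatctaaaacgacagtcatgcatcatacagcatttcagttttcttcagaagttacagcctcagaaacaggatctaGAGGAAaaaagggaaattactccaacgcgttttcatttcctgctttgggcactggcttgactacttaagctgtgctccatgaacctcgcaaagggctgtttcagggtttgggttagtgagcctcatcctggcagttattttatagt
Clec12a: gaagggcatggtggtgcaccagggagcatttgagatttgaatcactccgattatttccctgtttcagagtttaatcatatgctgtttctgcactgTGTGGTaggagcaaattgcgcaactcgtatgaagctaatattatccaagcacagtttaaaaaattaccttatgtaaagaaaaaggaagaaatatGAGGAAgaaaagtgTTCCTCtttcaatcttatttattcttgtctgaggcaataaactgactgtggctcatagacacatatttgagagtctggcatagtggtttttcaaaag
Olr1: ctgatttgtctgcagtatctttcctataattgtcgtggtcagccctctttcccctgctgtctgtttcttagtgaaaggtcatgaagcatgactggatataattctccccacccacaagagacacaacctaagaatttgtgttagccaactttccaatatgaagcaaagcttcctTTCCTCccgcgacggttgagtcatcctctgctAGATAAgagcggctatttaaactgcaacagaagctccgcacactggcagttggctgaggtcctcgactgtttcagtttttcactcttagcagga

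Each motif is the core that a family of blood transcription factors binds, and a match is only a match of letters. The Clec7a promoter held 1 GAGGAA and no RUNX or GATA match. The Clec12a promoter held 2 GAGGAA matches, on opposite strands, and 1 RUNX match. The Olr1 promoter held 1 GAGGAA and 1 GATA match. GAGGAA had 0 matches in the promoters not printed, those of Clec12b, Clec1b and Clec9a. Clec12b, at the lowest value like Olr1, also had 0 RUNX and 0 GATA matches, and Clec1b had 1 GATA match. Among one promoter for each of 27025 genes, GAGGAA was present in 28.3%, TGTGGT in 16.9% and AGATAA in 11.4%. The interferon-response (IRF) motif was present in 3.49% of all promoters and in none of the 3 printed. The bare ETS core GGAA, which GAGGAA contains, was present in 95.9% of all promoters and was left in lower case.

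Clec1a encodes a receptor known as MelLec, which binds fungal melanin and is known from endothelial cells and some myeloid cells. LT-HSC 1 and 2 had 233 and 241 CPM of Clec1a, against 61.1 and 78.9 CPM for ST-HSC 1 and 2. The groups were apart, the lower LT-HSC value being 2.96 times the higher ST-HSC value. LT-HSC averaged 237 ± 5.34 CPM, against 70.0 ± 12.6 CPM for ST-HSC (n = 2 libraries each, SD), a ratio of 3.39 and a log2 fold change of CPM + 1 of 1.76 ± 0.29 (SE). These values rest on 3049 and 3889 reads in LT-HSC and 919 and 1170 reads in ST-HSC. Clec1a had a high CPM in LT-HSC, where 92.9% and 93.9% of the 12608 tested genes were at or below it, against 57.7% and 65.9% in ST-HSC. CPM is not corrected for transcript length, so this rank is one of reads and not of transcript number. Because Clec1a and Clec7a were chosen on this contrast, their differences are given as a description, with no test. In sorted populations, fewer cells with a transcript and less transcript per cell cannot be told apart.

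Clec7a encodes Dectin-1, the receptor for fungal beta-glucan. It stood at 29.5 and 33.9 CPM in LT-HSC 1 and 2, from 386 and 547 reads, and at the lowest value in both ST-HSC libraries. The LT-HSC mean of 31.7 ± 3.07 CPM (SD, n = 2) was at least 158-fold higher than ST-HSC, with 3 reads per library taken as the floor (0.201 CPM on average in ST-HSC). Without LT-HSC 2 the bound was 147-fold, and without LT-HSC 1 it was 169-fold. These bounds hold for counting error alone. On the log2(CPM + 1) scale the difference was 4.93 ± 0.99 (SE), a size that the added value sets, since it became 6.65 with 0.25 added and 3.13 with 4 added. Both ST-HSC libraries were at the lowest value, so the groups did not overlap.

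Levels of the 2 genes can be set side by side only per length. Per kilobase of the longest coding transcript in GENCODE M21 (5128 bases for Clec1a and 2277 for Clec7a), the levels in LT-HSC were 45.5 and 46.9 CPM per kilobase for Clec1a and 13.0 and 14.9 CPM per kilobase for Clec7a. By these lengths Clec7a was the lower of the pair in both LT-HSC libraries. The shortest coding transcripts have 630 bases for Clec1a and 707 for Clec7a. Which transcripts the reads came from is not known, so the order holds for the longest ones alone. As a share of the reads of the pair, which does not depend on library scaling, Clec7a took 11.2% in LT-HSC 1 (95% Wilson interval 10.2 to 12.3) and 12.3% in LT-HSC 2 (11.4 to 13.3). In ST-HSC 1 and 2 Clec7a had at most 1 read beside 919 and 1170 reads of Clec1a, and a floor of 3 reads puts its share at no more than 0.326% and 0.256%. These shares describe the libraries and are no test, since Clec7a was chosen on this contrast. Reads copied by PCR are not separate molecules, so these intervals and floors hold for counting error alone.

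**Figure D1:**
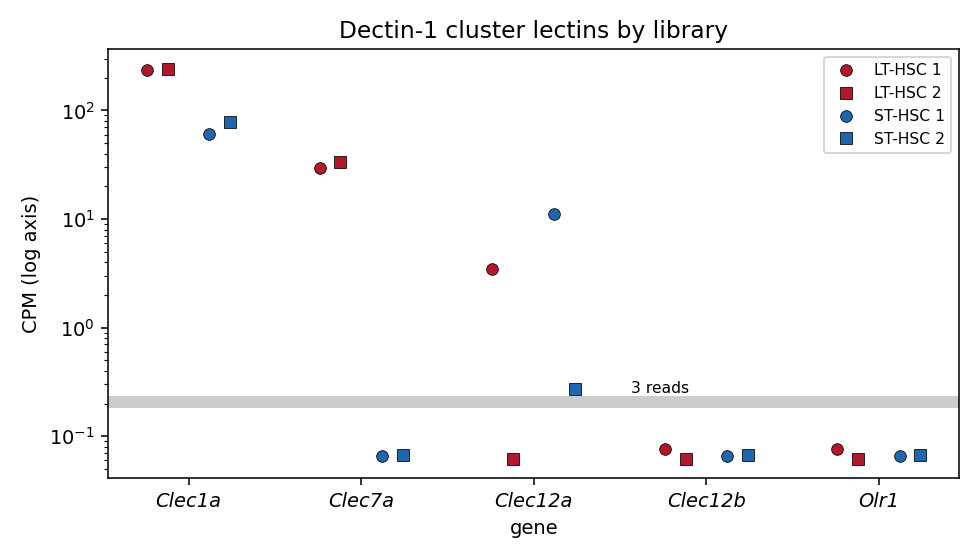
CPM (log axis) of the 5 listed members in each library, red for LT-HSC and blue for ST-HSC, with circles for libraries numbered 1 and squares for those numbered 2; the grey band marks 3 reads. Clec1a is at 233 and 241 CPM in LT-HSC and 61.1 and 78.9 CPM in ST-HSC, Clec7a lies below the band in ST-HSC, and Clec12a spreads widely within each group.

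Clec12a encodes an inhibitory myeloid receptor for uric acid crystals. It stood at 3.44 CPM in LT-HSC 1 and at the lowest value in LT-HSC 2, against 11.03 CPM in ST-HSC 1 and 0.270 CPM in ST-HSC 2. The groups overlapped, and libraries of the same group differed more than the groups did. LT-HSC 1 held 45 reads of it, against 166 reads for ST-HSC 1 and 4 for ST-HSC 2. The log2 fold change was -0.85 ± 1.52 (SE), and it became 0.18 when LT-HSC 2 was left out and 0.77 when ST-HSC 1 was, so no direction can be given. ST-HSC 1, the library with the most Clec12a, also held the most neutrophil marker reads. The 6 markers summed to 266 CPM there, against 35.1 to 52.8 CPM in the other 3 libraries. All 6 were above the lowest value in ST-HSC 1 but for Elane, which was highest in LT-HSC 1, at 20.2 CPM. Their part in the Clec12a value was not tested.

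Clec12b encodes another inhibitory receptor of the cluster, and Olr1 encodes LOX-1, a scavenger receptor for oxidised low-density lipoprotein. Both were at the lowest value of all 4 tables, at or below 1 read, so neither was detectable at this depth and neither entered the test. Of the 7 members, 3 passed the filter of at least 1 CPM in at least 2 libraries. Clec7a passed it only through LT-HSC. The LT-HSC libraries exceeded the ST-HSC ones without overlap for 2 of the 3 that passed, a pattern found in 16.1% of all tested genes, and the count is fixed by how Clec1a and Clec7a were chosen. In the RefSeq annotation of GRCm38.p6, the span of Clec12b contains those of Clec1b and Clec9a and overlaps that of Clec1a by 951 bases. How the authors counted reads in overlapping genes is not given in the sources used here. Between member transcripts the longest identical runs were 28 bases between Clec1a and Clec7a, 38 bases between Clec1a and Olr1, and 28 bases between Clec7a and Olr1.

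Genes around the cluster varied in direction. The 5 annotated genes on each side whose symbols the tables list were read next to the members, and 5 of these 10 were tested, of which 0 passed the limma test adjusted over all genes. Gabarapl1, an autophagy gene close to Olr1, stood at 93.9 and 74.4 CPM in LT-HSC against 77.3 and 72.9 CPM in ST-HSC (log2 fold change 0.15 ± 0.36 SE, limma adjusted p = 1.0). The gene model 2310001H17Rik had 94.9 and 127 CPM in LT-HSC and 68.6 and 64.7 CPM in ST-HSC, with a log2 fold change of 0.71 ± 0.35 (SE, adjusted p = 0.816). Its groups did not overlap, as with 16.1% of all tested genes. Cd69, which encodes a lectin-like activation marker of leukocytes, was at the lowest value in LT-HSC 1 and at 20.7 CPM in LT-HSC 2, against 15.1 and 51.4 CPM in ST-HSC. Clec2d, which encodes a ligand of the receptor NKR-P1, was at 3.13 and 13.2 CPM in LT-HSC, against 13.6 and 3.84 CPM in ST-HSC. The groups overlapped for both Cd69 and Clec2d (limma adjusted p = 0.871 and 1.0). The gene model 1700101I11Rik was lower in both LT-HSC libraries, at 2.98 and 2.41 CPM, than in ST-HSC, at 6.11 and 8.63 CPM (adjusted p = 0.918). The killer cell receptor genes Klrd1 and Klre1 and the models D630042F21Rik, 4922502D21Rik and Klrb1-ps1 did not pass the filter, and Klre1 had reads only in ST-HSC 2.

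**Figure D2:**
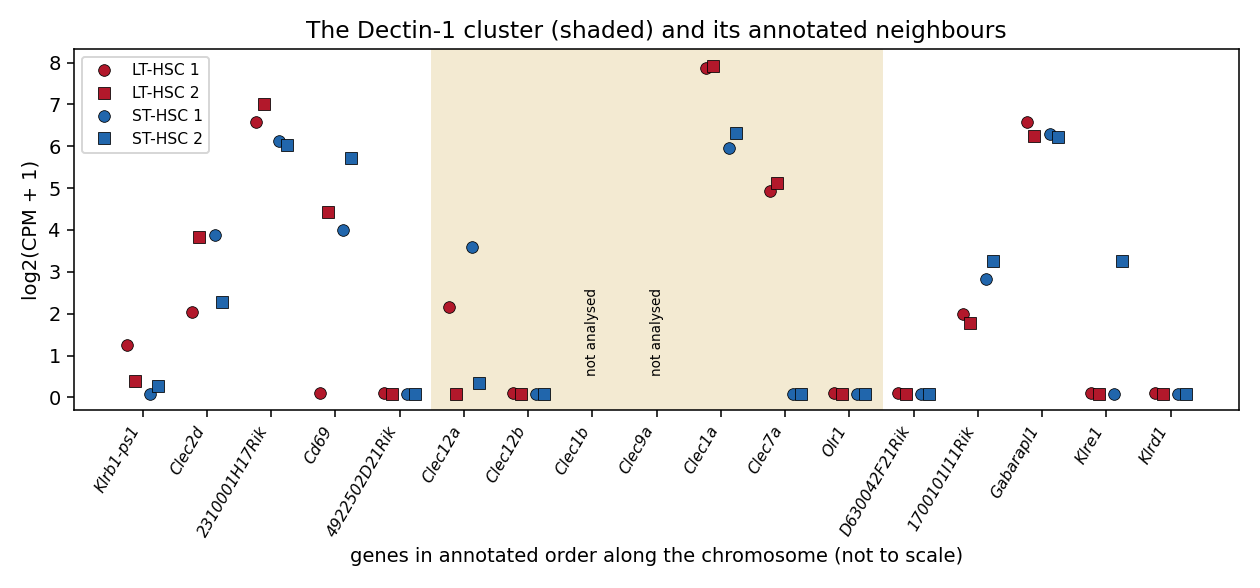
Level, as log2(CPM + 1), of the members (shaded) and of 5 listed genes on each side, in annotated order and not to scale, with red for LT-HSC and blue for ST-HSC. Clec1a and Clec7a stand apart by group, while Gabarapl1 and Clec2d do not, and Clec12b and Olr1 lie at the bottom in all 4 libraries.

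The signalling genes downstream of Dectin-1 and of CLEC-2, the platelet receptor encoded by Clec1b, were mostly read in both groups, and none passed the test. Over all 12608 tested genes limma made 0 calls (0%) with an adjusted p under 0.05. Without adjustment 819 genes had a p under 0.05, 364 of them higher (2.89%) and 455 lower (3.61%), and limma-voom made 0 adjusted calls and 704 unadjusted ones. Of 34 signalling genes, 30 were tested and 3 were higher at an unadjusted p. In 8 the LT-HSC values exceeded those of ST-HSC without overlap and in 4 they were lower without overlap, against 16.1% and 17.5% of all tested genes. Their median log2 fold change was 0.26, against -0.01 over all tested genes, and it was 0.88 without ST-HSC 1 and 0.12 without ST-HSC 2. Prkcd, which encodes the protein kinase C delta that phosphorylates CARD9, stood at 160 and 200 CPM in LT-HSC against 80.0 and 81.0 CPM in ST-HSC (log2 fold change 1.14 ± 0.30 SE, limma adjusted p = 0.713). Pik3r1, which encodes a regulatory subunit of PI3-kinase, stood at 154 and 323 CPM in LT-HSC against 79.8 and 107 CPM in ST-HSC (adjusted p = 0.750). Src, a kinase gene, stood at 51.2 and 60.6 CPM in LT-HSC against 14.0 CPM in ST-HSC 1 and the lowest value in ST-HSC 2 (log2 fold change 3.83 ± 1.47 SE, adjusted p = 0.768), and its fold change was 1.92 without ST-HSC 2. These 3 genes are the ones with an unadjusted p under 0.05. Card9, the gene of the adaptor itself, picked here with its values known, was low, with 22 and 36 reads in LT-HSC and the lowest value in both ST-HSC libraries, at least 9.74-fold higher against the floor (adjusted p = 0.844). Its partner Bcl10 was at 90.2 and 96.2 CPM in LT-HSC against 109 and 142 CPM in ST-HSC (picked likewise, adjusted p = 0.898). Nlrp3 and Grap2 were at the lowest value of all 4 tables, and Syk and Lcp2 were not analysed here.

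The phosphatases and docking proteins that serve inhibitory members such as Clec12a, listed with the receptor gene Cd300a, had a median near 0. Of these 8 genes 7 were tested, with a median log2 fold change of 0.02. Among them 1, Cd300a, was lower without overlap, against 17.5% of all tested genes. Ptpn6, which encodes SHP-1, was at 350 and 296 CPM in LT-HSC against 342 and 261 CPM in ST-HSC (limma adjusted p = 1.0). Cd300a, an inhibitory receptor gene, was below both ST-HSC libraries, at 0.994 and 16.4 CPM in LT-HSC against 17.5 and 29.0 CPM in ST-HSC (adjusted p = 0.871). Dok2, a docking protein gene, overlapped, at 85.9 and 89.8 CPM in LT-HSC, against 39.4 and 99.6 CPM in ST-HSC. Among 8 genes of activating adaptors and Fc receptors, 4 were tested, with a median of -0.44, and 2 were lower without overlap, again against 17.5%. Without ST-HSC 2 that median was -1.05. These 2 were Tyrobp, which encodes DAP12, at 11.5 and 5.39 CPM in LT-HSC against 23.4 and 21.7 CPM in ST-HSC, and Hcst, which encodes DAP10, at 8.87 and 10.03 CPM in LT-HSC against 23.9 and 12.2 CPM in ST-HSC (adjusted p = 0.868 and 0.972). Fcer1g, the gene of the common Fc receptor gamma chain, overlapped, at 54.4 and 42.2 CPM in LT-HSC against 48.4 and 52.4 CPM in ST-HSC.

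Ligands and membrane partners of the receptors, apart from Pdpn, were abundant in both groups. Of 8 genes, 7 were tested, with a median log2 fold change of 0.07, and 2 were higher and 1 lower without overlap, against 16.1% and 17.5% of all tested genes. Cd37, which encodes a tetraspanin that binds Dectin-1 at the cell surface, was at 130 and 108 CPM in LT-HSC against 210 and 226 CPM in ST-HSC (log2 fold change -0.87 ± 0.26 SE, limma adjusted p = 0.713). Its 2 groups did not overlap. The annexin genes Anxa1 and Anxa5 were slightly higher in each LT-HSC library, at 345 and 282 CPM in LT-HSC against 250 and 247 CPM in ST-HSC for Anxa1, and at 152 and 139.0 CPM against 139 and 118 CPM for Anxa5 (adjusted p = 0.868 and 0.998). Pdpn, which encodes podoplanin, the ligand of CLEC-2, did not pass the filter. Output genes of the pathway, cytokines and chemokines in the main, were little expressed. Of the 14 listed, 6 were at the lowest value in all 4 libraries and 3 were tested, with a median of 0.88, which was 1.63 without ST-HSC 2 and 0.28 without LT-HSC 1. Ccl4 was at 35.4 and 32.1 CPM in LT-HSC against 31.98 and 21.6 CPM in ST-HSC, Ccl3 at 6.80 and 8.60 CPM against 1.26 and 5.19 CPM, and Cxcl2 was read in LT-HSC 1 and ST-HSC 2 only (adjusted p = 1.0, 0.932 and 1.0). Ccl3 and Ccl4 were higher without overlap, as were 16.1% of all tested genes.

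**Figure D3:**
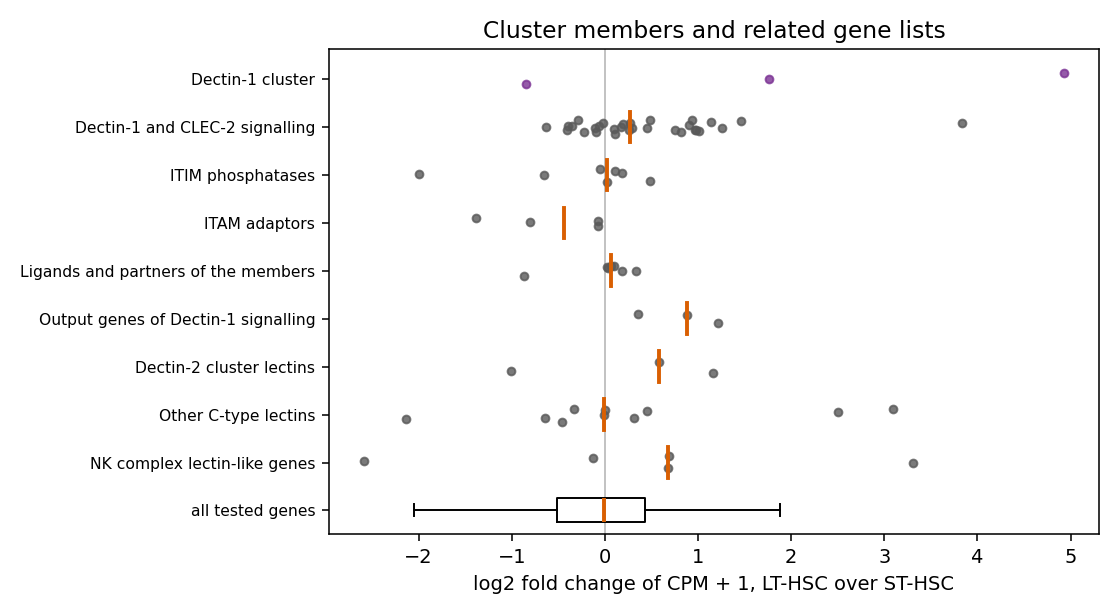
Log2 fold change of CPM + 1, LT-HSC over ST-HSC, of each tested gene (points) in the cluster and in the related lists, with list medians in orange; the box gives the quartiles of all tested genes and its whiskers the 5th and 95th percentiles. Clec7a at 4.93 and Clec1a at 1.76 lie to the right, the signalling genes have a median of 0.26, and no gene passed the test.

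Other C-type lectin genes were mostly unread or uneven. In the Dectin-2 cluster, which holds the related receptors for fungal mannans and lies elsewhere on the chromosome, 4 of 9 genes were at the lowest value in all libraries and 3 were tested, all with overlapping groups, and a median log2 fold change of 0.58. Clec4e, which encodes Mincle, was at 10.8 and 18.7 CPM in LT-HSC against 13.2 and 2.29 CPM in ST-HSC, and Clec4d and Clec4a2 were each above 1 CPM in 1 library of each group (limma adjusted p = 0.952, 1.0 and 1.0). Of 29 other lectin genes outside these clusters, 10 were tested, with a median of -0.01 (0.75 without LT-HSC 2), and 2 were higher and 1 lower without overlap, near the 16.1% and 17.5% of all tested genes. Ly75, which encodes the endocytic receptor DEC-205, was at 24.6 and 31.6 CPM in LT-HSC against 5.39 and 0.809 CPM in ST-HSC (log2 fold change 3.09 ± 1.11 SE, adjusted p = 0.759). Cd72, which encodes an inhibitory lectin of B cells, was at 54.0 and 18.3 CPM in LT-HSC against 119 and 170 CPM in ST-HSC (-2.14 ± 0.62 SE, adjusted p = 0.713). Clec4g, which encodes a lectin known from liver and lymph node sinus endothelium, was at 8.33 and 26.1 CPM in LT-HSC against 6.38 CPM in ST-HSC 1 and the lowest value in ST-HSC 2 (2.50 ± 1.41 SE, adjusted p = 0.832). The fold change of Clec4g became 1.11 when ST-HSC 2 was left out and 3.90 when ST-HSC 1 was, and that of Cd72 became -1.38 when LT-HSC 2 was left out. Lectin genes whose groups did not overlap lay on both sides. Of 28 listed lectin-like genes of the natural killer complex, 15 were at the lowest value in all libraries and 5 were tested, with a median of 0.68, and 3 were higher without overlap, against 16.1% of all tested genes. Klrb1c, which encodes the NK1.1 antigen, was at 8.79 and 59.7 CPM in LT-HSC against the lowest value in ST-HSC 1 and 4.65 CPM in ST-HSC 2 (adjusted p = 0.788), and Clec2g at 43.1 and 27.8 CPM against 17.1 and 25.9 CPM (adjusted p = 0.946). Ncr1, Prf1 and Gzma, from the list of natural killer cell markers, were at the lowest value of all 4 tables. On the same list Nkg7 was read in every library, at 13.2 to 97.3 CPM, and Eomes only in LT-HSC 2, with 5 reads.

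The genes whose profile over the 4 libraries was most like that of Clec1a, by the root mean square difference of log2(CPM + 1) centred on its mean, were S1pr1 (0.018), Nfil3 (0.070), Snx25 (0.106), Frmd4a (0.111) and Stk40 (0.121), out of 10660 named genes. S1pr1 encodes a receptor for sphingosine-1-phosphate and stood at 77.4 and 80.6 CPM in LT-HSC against 19.6 and 26.4 CPM in ST-HSC. Nfil3, a transcription factor gene, was much lower in level, at 2.68 and 2.85 CPM in LT-HSC against the lowest value and 0.404 CPM in ST-HSC. Its ratio of mean CPM was 11.7, against 3.39 for Clec1a, so its likeness to Clec1a depends on the added value of 1. Those most like Clec7a were Gkn3 (0.238), Rhbdf2 (0.300), Plekhb1 (0.315), Tmem53 (0.347) and Stard6 (0.358). Gkn3 had 35.4 and 25.3 CPM in LT-HSC, Stard6 had 20.3 and 18.4 CPM there, and both were at the lowest value in both ST-HSC libraries. Rhbdf2, which encodes an inactive rhomboid protein that carries the sheddase ADAM17 to the surface, was at 37.2 and 38.2 CPM in LT-HSC against 0.864 CPM and the lowest value in ST-HSC. With 4 libraries these likenesses are descriptions of this group contrast, with no p given.

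**Figure D4:**
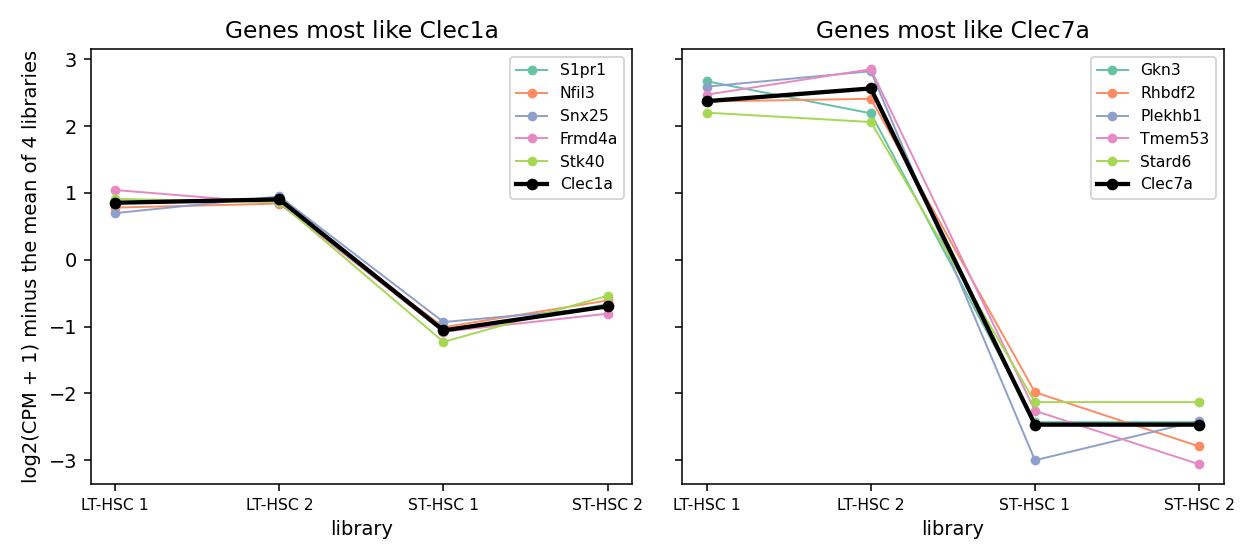
Log2(CPM + 1) minus its mean over the 4 libraries for Clec1a (left, black) and Clec7a (right, black) and for the 5 genes with the smallest root mean square difference from each; lines join the values of a gene. The S1pr1 line lies on that of Clec1a, with a difference of 0.018, and the genes like Clec7a fall to about the same depth in ST-HSC.

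HSC markers had the highest summed level of the marker lists in every library. On the CPM scale the summed markers of macrophages and of dendritic cells, where Dectin-1 is best known, were lower in LT-HSC without overlap. For macrophages the margin was narrow, with 205 CPM in LT-HSC 1 against 210 CPM in ST-HSC 2. Upper-quartile scaling factors of these 2 libraries, 0.935 and 1.02, lay further apart than that, so this order depends on the scaling. For dendritic cells the order rested on Flt3. All 6 listed HSC markers were tested, 5 of them higher without overlap (16.1% of all tested genes were), with a median log2 fold change of 0.71 and summed levels of 2569 and 2745 CPM in LT-HSC against 1778 and 1875 CPM in ST-HSC. Among them Procr, which encodes EPCR, was at 347 and 236 CPM in LT-HSC against 136 and 122 CPM in ST-HSC, and Mecom at 691 and 844 CPM against 365 and 480 CPM (limma adjusted p = 0.713 for both), while Hlf had a log2 fold change of 0.29 ± 0.13 (SE, adjusted p = 0.786). Fgd5 was uneven, at 142 and 79.9 CPM in LT-HSC against 52.2 and 2.49 CPM in ST-HSC (adjusted p = 0.802). The 8 monocyte and macrophage markers summed to 205 and 164 CPM in LT-HSC against 252 and 210 CPM in ST-HSC. Most of each sum was Lyz2, the lysozyme gene, which ran the other way, at 153 and 147 CPM in LT-HSC against 146 and 140 CPM in ST-HSC (adjusted p = 1.0). Of the 5 tested markers, 1 was higher and 2 were lower without overlap, against 16.1% and 17.5% of all tested genes, and Emr1 was read only in LT-HSC 1, at 3.21 CPM. Among the rest, Cd14 was at the lowest value in both LT-HSC libraries, and Cd68 was at 12.1 and 8.48 CPM in LT-HSC against 75.9 and 17.1 CPM in ST-HSC (adjusted p = 0.809 and 0.839). Csf1r overlapped, at 33.0 and 9.10 CPM in LT-HSC against 18.1 and 39.0 CPM in ST-HSC. Genes that did not pass the filter went both ways. Fcgr1, from the list of activating adaptors and Fc receptors and not in these sums, was read only in LT-HSC 2, with 242 reads. The macrophage markers Mrc1 and Ccr2 were read only in ST-HSC, with 55 and 6 reads for Mrc1 and 24 and 12 for Ccr2. The 7 dendritic cell markers summed to 13.0 and 35.1 CPM in LT-HSC against 51.9 and 73.0 CPM in ST-HSC, with Itgax and Batf3 at the lowest value in all libraries. Flt3, the gene of a cytokine receptor of progenitors and dendritic cells, was its largest part in every library. It stood at 6.50 and 22.02 CPM in LT-HSC against 39.02 and 69.6 CPM in ST-HSC (limma adjusted p = 0.768). Without Flt3 the sums of the dendritic list overlapped. Of the 3 tested dendritic markers, 1 was higher and 1 lower without overlap, against 16.1% and 17.5% of all tested genes. The higher was Zbtb46, at 5.20 and 6.75 CPM in LT-HSC against 5.05 and 3.10 CPM in ST-HSC. Zbtb46 had a log2 fold change of 0.48 ± 1.01 and Xcr1 of 0.14 ± 1.48 (SE, adjusted p = 1.0 for both). The 6 megakaryocyte and platelet markers, from cells where CLEC-2 is best known, summed to 96.2 and 79.7 CPM in LT-HSC against 256 and 193 CPM in ST-HSC, with Gp6 at the lowest value throughout. Most of the gap came with Itga2b, at 2.52 and 5.07 CPM in LT-HSC against 152 and 106 CPM in ST-HSC (log2 fold change -4.78 ± 0.74 SE, adjusted p = 0.713). Pf4 had a log2 fold change of -0.47 ± 0.60 and Gp9 of -0.10 ± 0.43 (SE, adjusted p = 0.984 and 1.0). Of the 4 tested markers of this list, 3 were lower without overlap, against 17.5% of all tested genes. The other, Ppbp, overlapped, at 20.9 CPM and the lowest value in LT-HSC against 16.0 and 0.135 CPM in ST-HSC (log2 fold change 0.14 ± 2.09 SE).

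Endothelial markers, from cells where Clec1a is also known, were low. The 6 endothelial markers summed to 44.4 and 15.5 CPM in LT-HSC against 42.0 and 34.2 CPM in ST-HSC, with Plvap and Lyve1 at the lowest value in all libraries. Cdh5 was at 2.52 CPM and the lowest value in LT-HSC, against 2.39 and 9.90 CPM in ST-HSC, and Stab2 was at the lowest value in LT-HSC against 28.4 and 15.5 CPM in ST-HSC (limma adjusted p = 0.883 and 0.713). Kdr was at 30.4 and 14.9 CPM in LT-HSC against 10.4 and 8.56 CPM in ST-HSC (adjusted p = 0.911). The 6 neutrophil markers summed to 52.8 and 52.4 CPM in LT-HSC against 266 and 35.1 CPM in ST-HSC. The high ST-HSC 1 value came with Ngp at 102 CPM, Camp at 61.9 CPM, S100a9 at 61.5 CPM and S100a8 at 39.6 CPM. Elane went another way, at 20.2 CPM in LT-HSC 1, 3.30 CPM in ST-HSC 2 and the lowest value elsewhere. Ly6g was low throughout, at 0.202 to 0.433 CPM. In the limma fit S100a8, S100a9 and Camp had adjusted p = 0.991, 0.899 and 0.957. The 6 natural killer markers summed to 22.3 and 98.3 CPM in LT-HSC against 64.7 and 102 CPM in ST-HSC, with Nkg7 at 13.2 and 38.1 CPM in LT-HSC against 64.4 and 97.3 CPM in ST-HSC (adjusted p = 0.768). The other natural killer marker tested, Klrb1c, ran the opposite way, as given above, with a log2 fold change of 3.31 (adjusted p = 0.788). Of the 7 marker lists, HSC alone had non-overlapping sums that were higher in LT-HSC. The part of other cells in the Clec1a and Clec7a values was not tested.

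**Figure D5:**
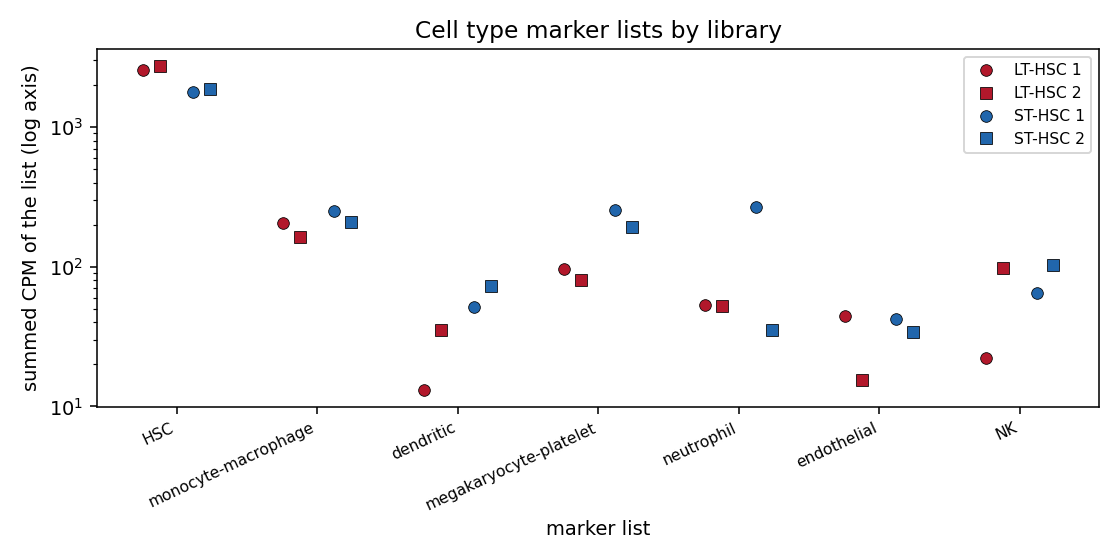
Summed CPM (log axis) of the listed members of each marker list by library, red for LT-HSC and blue for ST-HSC. HSC markers sum higher in LT-HSC. Monocyte-macrophage (by a narrow margin that depends on scaling), dendritic (through Flt3) and megakaryocyte-platelet markers sum lower in LT-HSC. Neutrophil markers stand out in ST-HSC 1 at 266 CPM.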

How the data were processed

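RNA was made into cDNA with the SMARTer kit and sequenced by Illumina protocols, per the labels. TopHat (no version given) and genome build mm9 are named in the submitters' processing notes; which counter and annotation followed is not given in the sources used here. For each library 1 deposited table gives the authors' log2 value for 23450 gene symbols. The steps between values are whole reads on a CPM scale (counts per 1000000 library reads). All values up to 100 reads (2666 to 4217 per library, above the lowest value) came out within 0.1 of a whole number (100%). The lowest value, shared by 8902 to 10175 genes, was read as at most 1 read, since the listed reads then sum to the authors' library totals if 286 to 576 genes per library had 1 read. CPM is 2 to the power of the deposited value, with no other scaling.

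The 12608 genes that reached 1 CPM in 2 or more libraries were tested on log2(CPM + 1) with limma 3.58.1 in R 4.3.3 (trend, robust with statmod 1.5.0), LT-HSC over ST-HSC, with Benjamini-Hochberg adjustment over all tested genes and a threshold of 0.05. Adding 1 understates changes of low genes. The fit was tested on simulated reads with the same set spread for every gene, which does not show how it does at the spread of these libraries. Members and lists were chosen with earlier results of these data known, so the members have no test. The genes named by rule are all members, 5 listed genes on each side, and the 5 genes most like Clec1a and Clec7a. From each list they include up to 3 genes with the smallest p where none passed. Other list genes given with values, among them Fgd5, Lyz2, Ngp and Dok1, lie outside this rule and were picked with their values known. Replicate numbers were not taken as pairs, and libraries of a group were no copies of each other (chi-square over degrees of freedom 181 and 142). Alternatives were the added value, filters, scaling, the block, limma-voom, no robust shrinkage and leaving out each library. Promoters are from RefSeq (GRCm38.p6), transcript lengths from GENCODE M21, and gene order from RefSeq. The promoters are thus from a later build than the alignments, and no coordinate was converted. List genes without a table entry count in a list's size but not among its tested genes, and another 2 genes first placed in the lists are not reported here and enter no list value.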

Additional observations from a re-analysis of the deposited data

How the results depend on the processing

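The count of 0 genes past the threshold held under all 14 alternatives, with 422 to 1099 genes at an unadjusted p under 0.05. Clec1a kept a log2 fold change between 1.57 (without ST-HSC 1) and 1.94 (without ST-HSC 2). Clec7a, at 4.93 as reported, was 6.65 with 0.25 added, 3.13 with 4 added and 8.32 with limma-voom, since ST-HSC held at most 1 read per library and the added value sets the size. The bound of at least 158-fold does not depend on the added value, but it holds for counting error alone. Other genes fell to the lowest value in 1 library of a group. Ngp had 1541 reads in ST-HSC 1 and the lowest value in ST-HSC 2, and Dok1 had the lowest value in LT-HSC 1 and 747 reads in LT-HSC 2. Clec12a could not be fitted with at least 5 CPM in 2 libraries. With the replicate block no gene passed either (0, against 0 without it, and 876 unadjusted). The differences between numbers 1 and 2 correlated at 0.052 between the groups. That value cannot show whether libraries with the same number share a source.

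Of 57 named genes other than members, 12 turned sign when 1 library was left out, and another 23 kept their sign and moved by over 1.5 times. For those that turned, log2 fold changes ran from -0.18 to 1.14 for Dok2, -0.08 to 0.30 for Ptpn6, -0.25 to 0.11 for Fcer1g, -0.76 to 2.52 for Cxcl2, -2.93 to 0.90 for Clec4d, -0.51 to 1.68 for Clec4a2, -1.45 to 0.30 for Csf1r, -1.24 to 1.51 for Xcr1, -4.95 to 0.93 for Camp, -1.46 to 0.12 for S100a8, -1.03 to 0.76 for Clec2d and -0.01 to 0.32 for Gabarapl1. The cause was not tested. List medians ran from 0.12 to 0.88 for signalling genes, -0.15 to 0.09 for phosphatases, -1.05 to -0.23 for activating adaptors, -0.04 to 0.20 for ligands and partners, -0.10 to 1.53 for the Dectin-2 cluster, -0.13 to 0.75 for other lectins and 0.29 to 0.96 for the natural killer complex. Taking 1 read off every value, an alternative chosen after seeing the data, gave 5.02 for Clec7a and 1.76 for Clec1a. Depth limits Clec12b and Olr1, at most 1 read in each library, and any Clec7a level in ST-HSC under 3 reads.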
